A study of Mus musculus with 13 samples.

Results

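Histone genes were examined in enriched Sertoli cells, the somatic nurse cells of the seminiferous tubule, from adult male mice. The members were the rows of the count table whose symbol follows mouse histone nomenclature (Hist1h to Hist4h, H1f, H2a, H2b, H3c, H3f, H4c and H4f), which gave 98 of 27111 features with a gene name. Of these, 64 were replication-dependent genes, 9 were somatic replacement genes, 24 were germ-line variants and 1 was a pseudogene (H2bu1-ps).

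All mice were C57Bl/6J and labelled wild type ("Bl6 wt"). MSUS stands for maternal separation paired with stress of the mother, both unpredictable. As pups, the 7 MSUS males lost 3 h of maternal care a day over the first postnatal days (PND 1 to 14), with no fixed hour. The stressor given to their dams in these hours was tube restraint (20 min) or forced swimming (5 min, 18 °C). The 6 control males had neither the separation nor the stress of the dam. Cells were sorted from dissociated testis as diploid, large cells with high MitoTracker signal, so the preparation is enriched by size and mitochondrial activity and not by a Sertoli-specific label, and each library came from 5 ng of total RNA. The comparison asks whether early postnatal stress leaves a difference in histone transcripts of adult Sertoli cells.

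Histones are the proteins on which DNA is wound. H2A, H2B, H3 and H4 form the core of the nucleosome and H1 binds the linker DNA. Replication-dependent genes lie in clusters, are transcribed mainly in S phase, and make mRNAs that end in a short stem-loop instead of a poly(A) tail. Replacement histones such as H3.3, H2A.Z and macroH2A are made throughout the cell cycle from ordinary polyadenylated mRNAs and serve cells that no longer divide, as adult Sertoli cells do. Germ cells add their own variants: H1t, TH2A and TH2B in spermatocytes, and H1T2 and the H2A.L proteins in spermatids, before protamines take the place of most histones.

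The stem-loop was found in most replication-dependent genes and in a few of the other histone members, and the forms carried by genes described below are shown here, with the bases of the stem in capitals and the loop in lower case (GRCm38, transcripts of GENCODE). That of H2ac19 lies at chr3:96239784-96239799 on the minus strand and that of H4c3 at chr13:23698089-23698104 on the minus strand. H1f6 carries it at chr13:23696525-23696540 on the plus strand and H2afx at chr9:44335240-44335255 on the plus strand. Each lies within 1 exon.

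H2ac19: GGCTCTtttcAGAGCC
H4c3: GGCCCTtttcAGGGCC
H1f6: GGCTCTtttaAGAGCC
H2afx: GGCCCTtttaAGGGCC

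The H2ac19 form was the most common and stood in 26 of the replication-dependent genes, from H1f2 to H3c15. The H4c3 form, which differs in the stem, was found in 7 replication-dependent genes, all of the H4 family. In all, 45 of 64 replication-dependent genes (70.3%) held a stem-loop, against 86 of 55450 annotated genes (0.155%). All 45 were among the 51 replication-dependent genes whose annotation gives a 3′UTR of at least 16 bases, and 0 of the 13 without such a 3′UTR held it. Among the other histone members it was present in H2afx, in the testis-specific H1f6 and in H2bfm, and annotated genes outside the member list make up the rest of the 86. A further property of the annotation was that 22 replication-dependent genes had transcripts running more than 100 bases past the stem-loop. These genes held 37.9% ± 1.67 (SD, n = 6) of all replication-dependent counts in controls and 37.6% ± 1.40 (SD, n = 7) in MSUS samples. The libraries were made from total RNA without poly(A) selection, so transcripts with and without a poly(A) tail could both be read.

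Control libraries held 13087203 to 18649945 estimated counts and MSUS libraries 12701776 to 15693938. Histone genes took 0.231% ± 0.0146 (SD, n = 6) of the counts of named genes in controls and 0.217% ± 0.0284 (SD, n = 7) in MSUS samples, a difference smaller than the spread between MSUS samples. Expression of the sorted cells' own markers was checked first. Clu, a secreted Sertoli glycoprotein and the most abundant of 12 Sertoli markers, stood at 13.08 ± 0.10 log2 CPM (the log2 of counts scaled to the library total, as CPM; SD, n = 6) in controls and 13.02 ± 0.09 (SD, n = 7) in MSUS samples. Germ cell transcripts were present as well. Prm2, a protamine of elongated spermatids, stood at 9.22 ± 0.38 and 9.30 ± 0.50 log2 CPM, and Ldhc, the lactate dehydrogenase of spermatocytes, at 7.67 ± 0.24 and 7.61 ± 0.37 log2 CPM, in controls and MSUS samples respectively. The 7 macrophage markers were near 0, with Cd163 the most abundant at 0.497 CPM. In such bulk samples, fewer cells of a type and less RNA per cell cannot be told apart.

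No histone gene passed the adjusted threshold in MSUS compared with control Sertoli cells. Of the 98 members, 71 had enough counts to be tested, 52 of them replication-dependent, 9 somatic replacement and 10 germ-line. At an unadjusted p under 0.05 (limma), 5 of the 71 (7.04%) were called, against 5.42% of all 14421 genes tested, so that the share among histones was close to that of the transcriptome. The adjusted p-values of the members ran from 0.878 to 0.999, and 0 of 14421 genes had an adjusted p under 0.05. In none of the 71 did the groups separate without overlap, which 8 genes (0.0555%) did with every MSUS sample lower and 11 genes (0.0763%) with every MSUS sample higher. At the same unadjusted threshold, edgeR's quasi-likelihood test called 1 replication-dependent gene and 0 others, against 778 of all 14421 genes tested. DESeq2 called 3 and 1, against 835 of 14421. Neither test had an adjusted p under 0.05 for any member.

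Replication-dependent histones as a class differed little between the groups. Their summed level was 10.20 ± 0.13 log2 CPM (SD, n = 6) in controls, with a lowest value of 9.97, a median of 10.21 and a highest value of 10.34. MSUS samples had 10.13 ± 0.15 (SD, n = 7), with a lowest value of 9.86, a median of 10.16 and a highest value of 10.31. The groups overlapped over most of their range, and only 1 MSUS sample lay under the lowest control. Of the 52 genes tested, 35 had a negative and 17 a positive log2 fold change, with a median of -0.048 against -0.0018 over all genes tested, where 50.5% were negative. Called lower was 1 gene (background 2.4%) and called higher were 2 (background 3.02%).

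**Figure D1:**
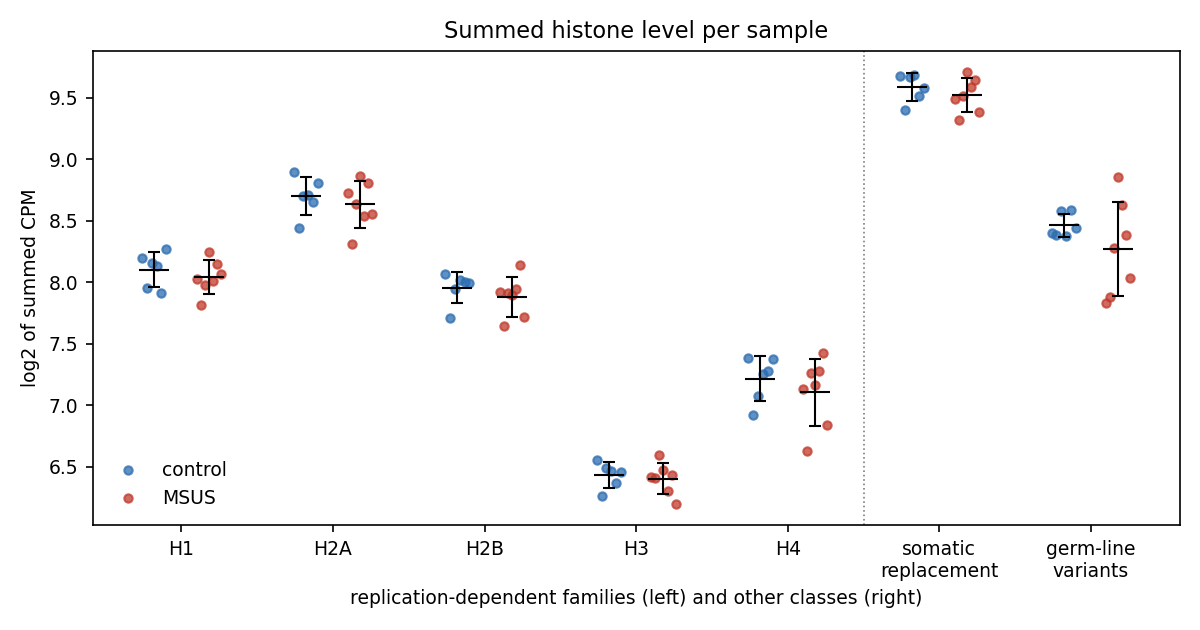
Log2 of the summed CPM of each replication-dependent family and of the somatic replacement and germ-line classes, 1 point per mouse, with the mean (bar) and SD (whiskers) of 6 control (blue) and 7 MSUS (red) samples. The groups overlap in every family, and the summed level of the germ-line variants runs from 7.83 to 8.86 in MSUS samples.

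By family, the summed level in controls and MSUS samples was 8.10 ± 0.14 and 8.04 ± 0.14 log2 CPM for the linker histone H1, 8.70 ± 0.16 and 8.63 ± 0.19 for H2A, and 7.96 ± 0.13 and 7.88 ± 0.16 for H2B. It was 6.43 ± 0.10 and 6.40 ± 0.12 for H3 and 7.22 ± 0.18 and 7.11 ± 0.28 for H4 (SD, n = 6 and n = 7). Each of these 5 differences was smaller than the SD of either group. The share of each family in the replication-dependent CPM, which is not corrected for transcript length, was likewise close in the groups. H2A took 35.4% ± 0.711 in controls and 35.4% ± 1.42 in MSUS samples, and H3, the smallest, 7.35% ± 0.283 and 7.59% ± 0.870.

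Per length, the most abundant replication-dependent genes were H2ac19 with 367 CPM per kb, H2ac18 with 116, H2bc11 with 97.1 and H1f2 with 93.3, as means over all 13 samples and per kb of the longest annotated transcript. That length is 528 bases for H2ac19, 586 for H2ac18 and 1560 for H1f2, which runs 840 bases past the stem-loop. The order therefore depends on the annotated length. H2ac19 (chr3:96239779-96240374) and H2ac18 (chr3:96245497-96246052) are neighbouring H2A genes, and 100% of the 31-base words of H2ac19 also occur in another gene, so how the reads were split between them is uncertain. Together they held 64.0% ± 2.07 (SD, n = 6) of replication-dependent H2A counts in controls and 64.1% ± 2.74 (SD, n = 7) in MSUS samples. Neither was called, with log2 fold changes of -0.05 (SE 0.11, 95% interval -0.27 to 0.18) for H2ac19 and -0.11 (SE 0.14, 95% interval -0.41 to 0.18) for H2ac18. By mean log2 CPM, which is not corrected for length, the other genes among the 10 highest of the class were H1f2 (-0.07), H1f4 (-0.02), H2bc4 (-0.11), H2bc11 (-0.28), H2bc18 (0.04), H4c8 (-0.18), H4c3 (-0.23) and H2ac6 (-0.30), each as a log2 fold change, and none of them was called. H2ac6, an H2A gene of the large cluster on chromosome 13, had 5.04 ± 0.32 log2 CPM (SD, n = 6) in controls and 4.72 ± 0.28 (SD, n = 7) in MSUS samples, and every MSUS sample lay under the control mean. Its 95% interval (limma) reached from -0.61 to just above 0, and edgeR (-0.33) and DESeq2 (-0.32) called it at the unadjusted threshold.

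Among the replication-dependent genes called at an unadjusted p under 0.05 were a pair of H2B genes that were higher in MSUS samples. H2bc15 (chr13:21754076-21754553, plus strand) had control values between 2.12 and 3.19 log2 CPM, with a median of 2.81, and MSUS values between 2.64 and 3.67, with a median of 3.10 (log2 fold change 0.45, SE 0.21, adjusted p = 0.878, limma). H2bc12 (chr13:22035821-22036320, plus strand) was low, at 1.28 CPM on average, with control values between -0.78 and 0.80 log2 CPM and MSUS values between 0.11 and 1.81 (log2 fold change 0.77, SE 0.36, adjusted p = 0.878, limma). In both genes the groups overlapped, and the control mean was exceeded by 6 of 7 MSUS samples for H2bc15 and 7 of 7 for H2bc12. DESeq2 called both (0.43 and 0.80), and neither was called by edgeR (0.43 and 0.79) or with sample quality weights (0.41 and 0.72). Neither was called with the mean level of 11 spermatocyte markers as a covariate (0.36 and 0.77), with unnamed features kept or with no filter (0.44 and 0.76 in each). H2bc12 alone lost its call with library size alone or upper quartile scaling (0.76 in each). Both were called with RLE scaling or a filter of 1 CPM (0.45 and 0.77 in each), and with elongated spermatid markers as a covariate (0.48 and 0.85). With 1 library left out, each lost its call in 8 of 13 fits, both of them without MSUS 1, 6, 23 or 26 or control 10, 12 or 14, H2bc15 also without MSUS 13 and H2bc12 also without control 22. The log2 fold change then lay between 0.33 and 0.54 for H2bc15 and between 0.60 and 0.94 for H2bc12. The H4 gene Hist1h4n (chr13:21831792-21832197, minus strand) was called lower, with a log2 fold change of -1.93 (SE 0.90, adjusted p = 0.878, limma). Its control values lay between -0.13 and 1.27 log2 CPM and its MSUS values between -2.52, which stands for a count of 0, and 2.39, and the sign was opposite in edgeR (0.06) and DESeq2 (0.06). Hist1h4n lost its call without MSUS 1, 5, 6 or 13 or control 9, 14 or 24, and left-out fits gave -2.55 to -1.44. It was also not called with elongated spermatid markers (-0.66) or spermatocyte markers (-2.02) as a covariate. These 3 genes share 88.0%, 75.3% and 87.5% of their 31-base words with other genes, in the order named.

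**Figure D2:**
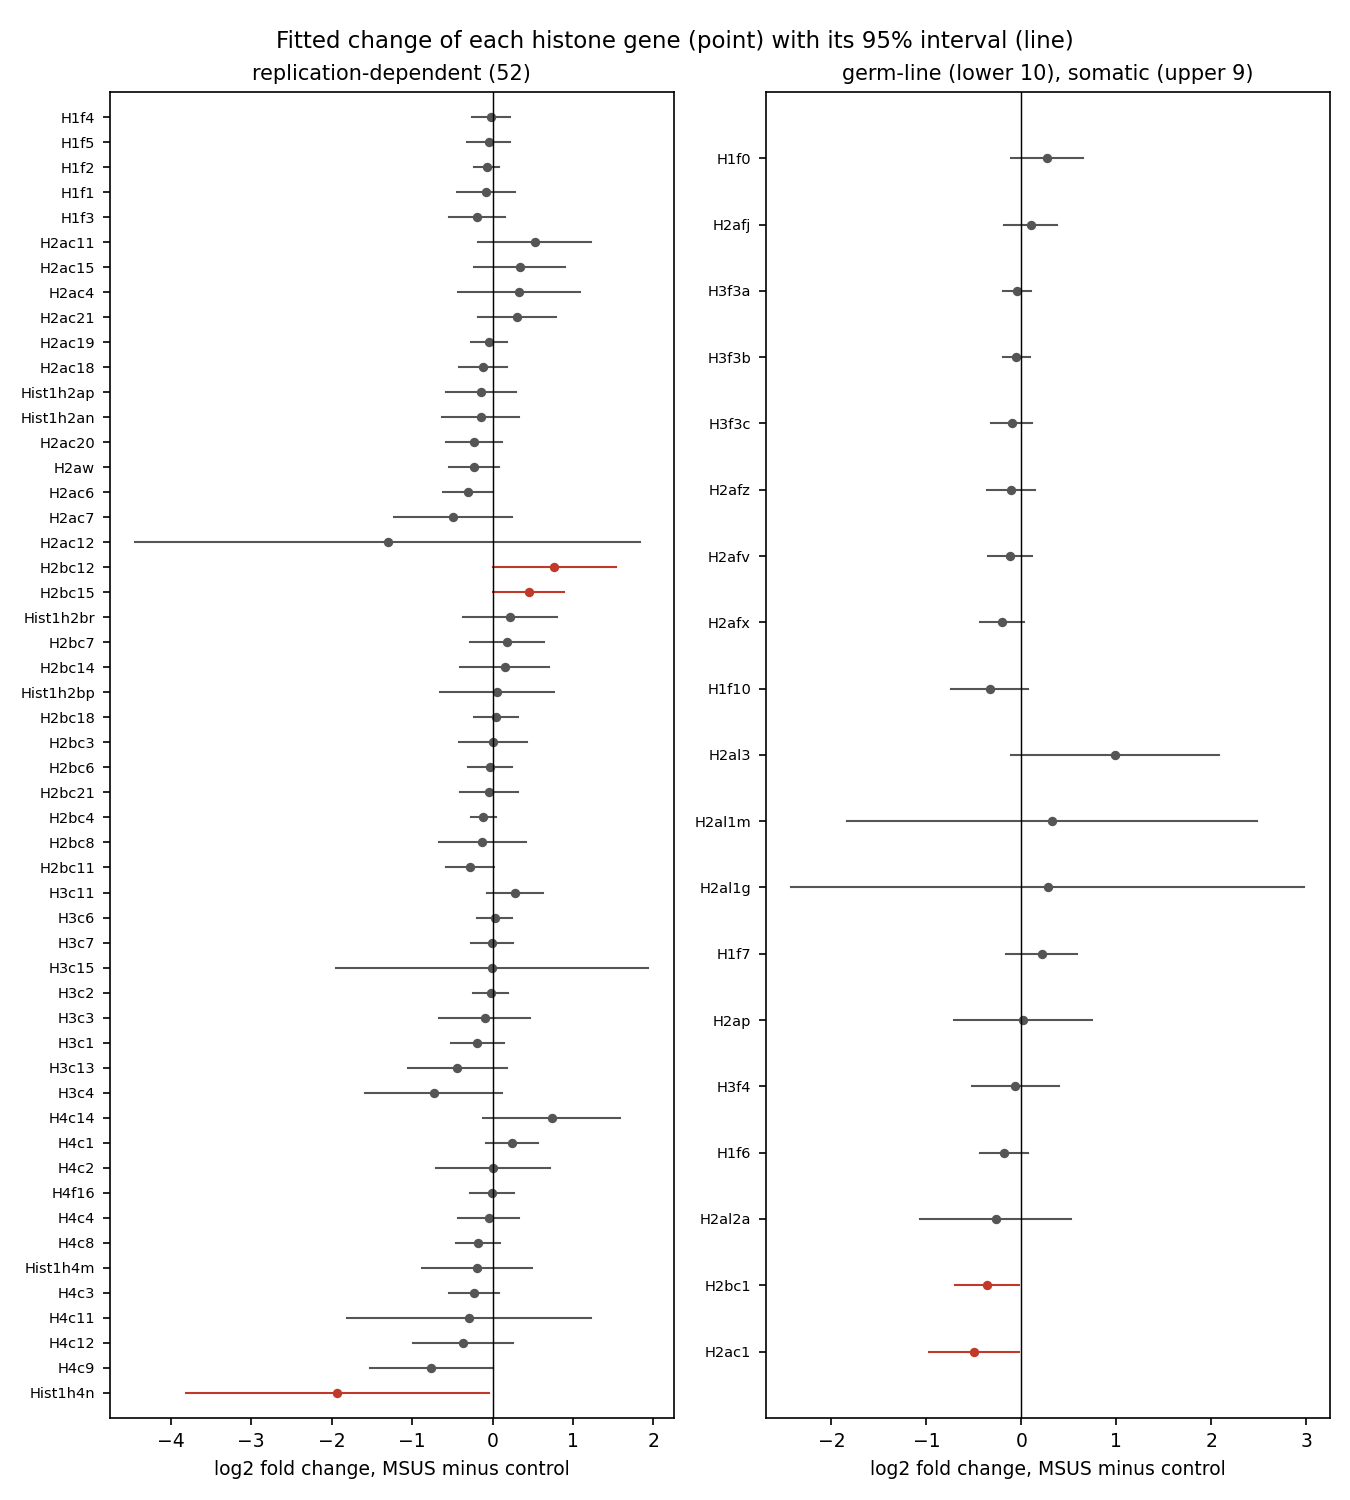
Log2 fold change, MSUS minus control, of the 71 histone genes tested (point) with its 95% interval from limma (line); the left panel holds 52 replication-dependent genes by family and the right panel 10 germ-line and 9 somatic replacement genes, on separate scales. The 5 genes with an unadjusted p under 0.05 are red, and the widest intervals belong to H2ac12, H3c15, Hist1h4n, H2al1g and H2al1m.

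By the median SD, control mice differed more in genes whose sequence is shared between copies. Histone genes differ widely in how much sequence they share with other genes. The median share of 31-base words found in another gene was 59.1% for replication-dependent, 8.9% for somatic replacement and 44.0% for germ-line members. Over the tested members, the median SD between controls was 0.24 log2 units in the 24 genes under 20% shared, 0.30 in the 22 genes from 20% to 60% and 0.33 in the 25 genes over 60%. The median control level of these groups differed as well, at 4.41, 3.33 and 3.01 log2 CPM, and its part in the SDs was not tested. Among genes above 3 log2 CPM in controls, the median SDs were 0.19, 0.22 and 0.25 in 19, 12 and 13 genes, whose median levels were 4.64, 4.72 and 4.46. H2ac12, with 91.2% shared, had estimated counts from 0 to 203 in controls (SD 2.35 log2 units), whereas H1f1, with 0.3% shared, had an SD of 0.16. Single genes went the other way as well. H2ac19, with 100% shared, had an SD of 0.24, and H2al3, with 0% shared, 0.85. The control levels of H2ac12, H1f1, H2ac19 and H2al3 were 2.10, 4.52, 7.61 and -0.45 log2 CPM. The relation of SD and shared sequence is across genes, which are not independent replicates.

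**Figure D3:**
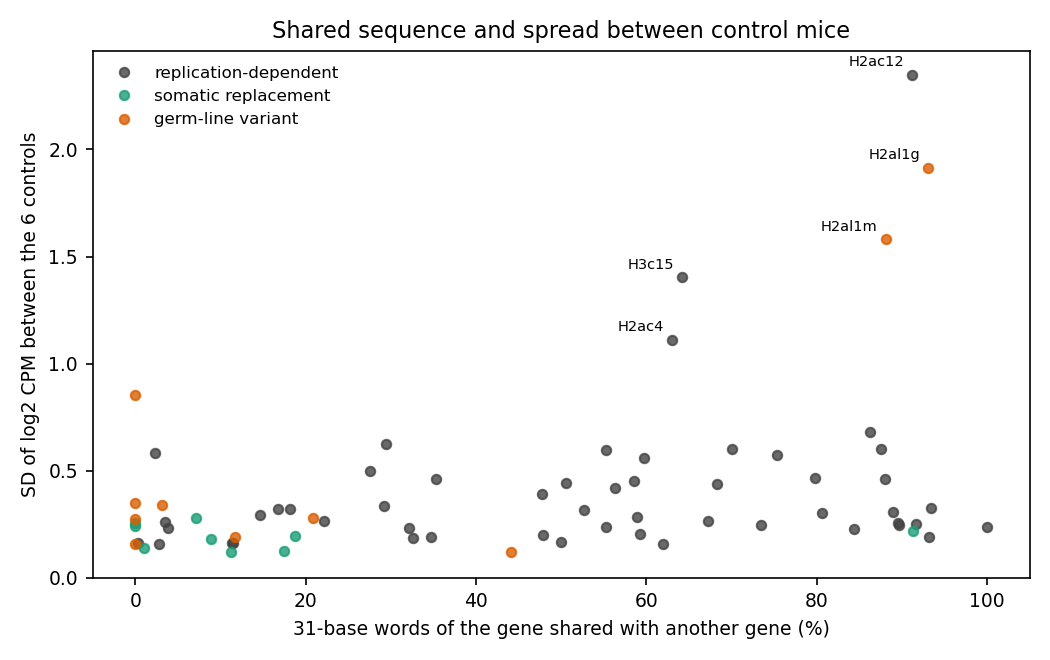
SD of log2 CPM between the 6 control mice against the share of a gene's 31-base words that occur in another gene, 1 point per tested histone gene, coloured by class. The named genes with an SD above 1 all have more than 60% of their words in common with another gene.

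Among the H3 genes, those of somatic replacement histones were the most abundant per kb of the longest annotated transcript. The 2 genes of H3.3, the variant deposited outside replication, had 128 (H3f3b) and 63.1 (H3f3a) CPM per kb, and H3f3c, a related copy that shares 91.3% of its words, 85.1, against 35.0 for H3c2, the most abundant replication-dependent H3 gene on this scale. H3f3c is annotated at 411 bases without a 3′UTR and H3c2 at 620 bases, so their order also depends on the annotation. H3f3b had control values between 8.19 and 8.48 log2 CPM (median 8.40) and MSUS values between 8.09 and 8.45 (median 8.32), and the groups overlapped almost fully. The log2 fold change was -0.06 (95% interval -0.20 to 0.09) for H3f3b, -0.05 (-0.19 to 0.10) for H3f3a and -0.10 (-0.32 to 0.12) for H3f3c. The intervals of H3f3b and H3f3a were the narrowest of the class.

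H2afx encodes H2A.X, which is phosphorylated at DNA breaks and on the sex chromosomes in meiosis, and it carries a stem-loop as shown above. Its level was 6.25 ± 0.18 log2 CPM (SD, n = 6) in controls and 6.05 ± 0.26 (SD, n = 7) in MSUS samples, and 6 of 7 MSUS samples were lower than the control mean (log2 fold change -0.20, SE 0.11, 95% interval -0.44 to 0.03). The H2A.Z genes H2afz and H2afv had log2 fold changes of -0.11 (95% interval -0.36 to 0.15) and -0.12 (-0.36 to 0.11). H1f10, a linker histone whose 31-base words are all unique, had -0.33 (95% interval -0.74 to 0.07), while H1f0, the linker histone of differentiated cells, had 0.27 (-0.11 to 0.65) and H2afj 0.10 (-0.18 to 0.37). Of the 9 somatic replacement genes, 7 had a negative and 2 a positive log2 fold change, where 50.5% of all genes tested were negative. Called were 0 (background 5.42%), and the median was -0.10. Their summed level was 9.59 ± 0.11 log2 CPM (SD, n = 6) in controls and 9.52 ± 0.14 (SD, n = 7) in MSUS samples.

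The summed level of the germ-line variants had a larger SD between MSUS mice than that of any replication-dependent family or of the somatic replacement genes, although single replication-dependent genes such as H2ac12 varied more. It lay between 8.38 and 8.59 log2 CPM in controls (SD 0.10, n = 6) and between 7.83 and 8.86 in MSUS samples (SD 0.38, n = 7), with 4 MSUS samples below and 2 above every control. Per length the most abundant were H2bc1 (TH2B) with 307 CPM per kb and H1f6 (H1t) with 156. H2ac1 (TH2A), H3f4 and H1f7 (H1T2) followed with 33.3, 30.3 and 29.1. H2ac1 and H3f4 are annotated without a 3′UTR, at 390 and 411 bases against 1308 for H1f7, so their order depends on the annotation. Of the 10 germ-line genes tested, 5 had a negative and 5 a positive log2 fold change, and the median was -0.02. H2bc1 and H2ac1 were called lower (background 2.4%), and 0 were called higher (background 3.02%).

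**Figure D4:**
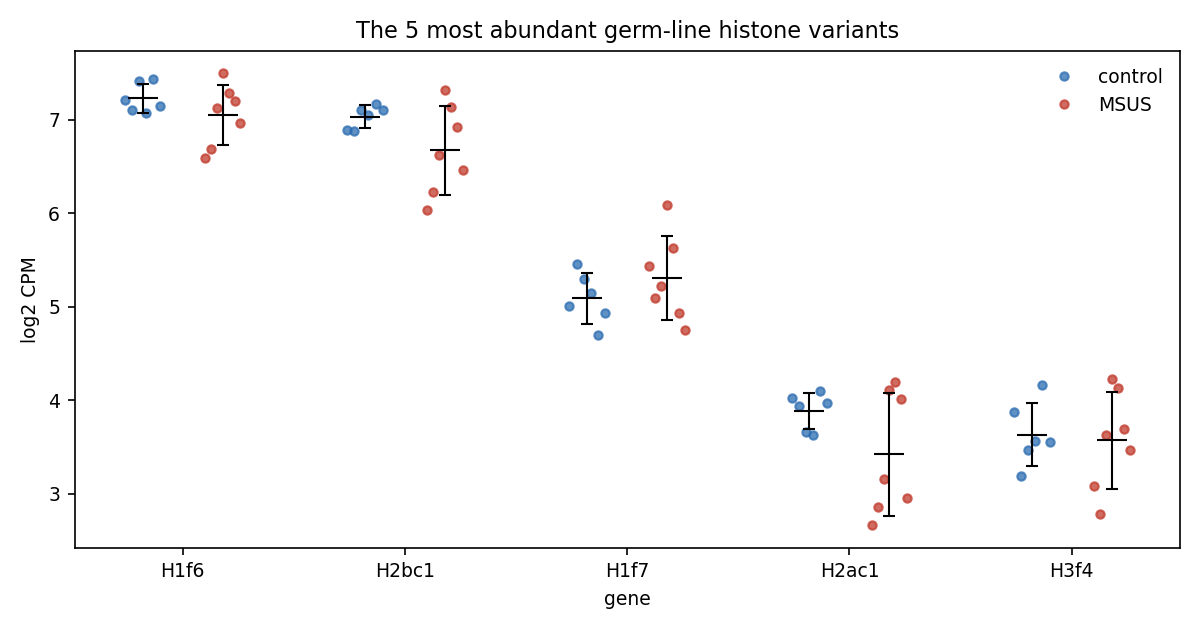
Level in log2 CPM of the 5 germ-line histone variants with the highest mean CPM, 1 point per mouse, with the mean (bar) and SD (whiskers) of 6 control (blue) and 7 MSUS (red) samples. For H2bc1 the controls sit between 6.88 and 7.16 and the MSUS samples between 6.03 and 7.31.

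H2bc1 and H2ac1 encode the testis-specific H2B and H2A that enter chromatin in spermatocytes. The genes are neighbours on chromosome 13 in opposite orientation, H2bc1 at chr13:23933725-23934156 on the minus strand and H2ac1 at chr13:23934437-23934913 on the plus strand, with 281 bases between their annotated starts. The 250 bases upstream of H2bc1 (chr13:23934157-23934406, minus strand, GRCm38.p6, RefSeq), which span most of the region between both genes, are shown because these genes were called together. Capitals mark the octamer ATTTGCAT, the TATA motif TATAAA and the CCAAT box on either strand (ATTGG is its reverse complement).

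H2bc1 upstream region: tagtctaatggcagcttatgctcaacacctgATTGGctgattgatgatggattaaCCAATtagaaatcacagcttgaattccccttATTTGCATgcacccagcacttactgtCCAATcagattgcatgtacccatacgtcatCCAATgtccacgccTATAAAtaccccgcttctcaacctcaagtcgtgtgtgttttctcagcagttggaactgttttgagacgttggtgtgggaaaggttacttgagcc

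The octamer starts at -164 and the TATA motif at -94 from the annotated start of H2bc1. Another TATA motif lies close to the annotated start of H2ac1. It runs past the edge of the region shown and is therefore not marked there. Of 32851 RefSeq promoters, 1.6% held the octamer in the same window on either strand, 12.4% the TATA motif and 33.8% the CCAAT box. Among replication-dependent genes the octamer stood in 6 of 17 H2A promoters and 6 of 16 H2B promoters and in 0 of the H1, H3 and H4 promoters. The CCAAT box stood in 100% of H1, H2A and H2B promoters of that class, 80% of those of H3 and 25% of those of H4, and the TATA motif in 45% of all of them. Windows of neighbouring genes in opposite orientation can overlap, as those of H2bc1 and H2ac1 do, so the same site can count for both genes. Such shared sites were not counted apart. All these counts are matches of letters and were not tested for binding.

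H2bc1 had 6.88, 7.07 and 7.16 log2 CPM as lowest, median and highest control value and 6.03, 6.62 and 7.31 in MSUS samples. In MSUS samples 4 values lay below every control and 1 above every control (log2 fold change -0.37, SE 0.16, adjusted p = 0.878, limma). H2ac1 had 3.63, 3.95 and 4.09 log2 CPM in controls and 2.66, 3.16 and 4.19 in MSUS samples, again with 4 MSUS values below every control and 2 above (log2 fold change -0.50, SE 0.22, adjusted p = 0.878, limma). The SD between mice was 0.12 in controls and 0.48 in MSUS samples for H2bc1, and 0.19 and 0.66 for H2ac1. The limma calls assume a common variance of the groups for each gene, and a fit with a variance for each group was not run. Over 24 alternatives of processing and left-out libraries, each of the pair was called in 13, with log2 fold changes from -0.47 to -0.15 for H2bc1 and from -0.63 to -0.18 for H2ac1. Neither was called by edgeR (-0.30 and -0.36) or DESeq2 (-0.29 and -0.35), or when MSUS 1, 5, 6 or 26 or control 22 or 24 was left out, and among the left-out libraries the changes were smallest without MSUS 1 (-0.26 and -0.37). H2bc1 shares 44.1% and H2ac1 11.7% of its 31-base words with another gene.

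H1f6, the linker histone of pachytene spermatocytes, had 7.07, 7.17 and 7.43 log2 CPM as lowest, median and highest control value and 6.59, 7.12 and 7.49 in MSUS samples (log2 fold change -0.18, SE 0.12, 95% interval -0.44 to 0.07). All of its words are unique, and its estimated counts were whole numbers in all 13 samples. H1f7, the spermatid linker histone, had 4.69, 5.08 and 5.46 log2 CPM in controls and 4.75, 5.22 and 6.09 in MSUS samples (log2 fold change 0.21, SE 0.18, 95% interval -0.16 to 0.59). H3f4, a testis H3 gene, had a log2 fold change of -0.07 (95% interval -0.52 to 0.39). The remaining tested germ-line genes were scarce, with a mean CPM of 4.13 for H2ap, 2.43 for H2al2a, 1.55 for H2al1g, 1.03 for H2al3 and 0.776 for H2al1m. Their log2 fold changes were 0.02, -0.27, 0.28, 0.99 and 0.32, and none was called. H2al3 was called at the unadjusted threshold by DESeq2 (1.02), with sample quality weights (1.02), with the mean level of 11 spermatocyte markers as a covariate (1.21) and without control 10 (1.27) or MSUS 26 (1.24), and its log2 fold change was 0.63 without control 24. It did not pass the filter on low counts without MSUS 1 or MSUS 6. The other 14 germ-line genes were below the filter, and H2afb1, H2afb2, H2al1j and H2al2c were listed at 0 in every sample.

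The 5 most abundant germ-line variants were set against germ cell markers of the same mice. Marker means were taken over 11 spermatocyte and 10 elongated spermatid genes, none of them a histone. Over the 13 mice and 10 relations examined, the spermatocyte mean was related to H1f6 with r = 0.94 (permutation p = 1e-05, adjusted 0.0001, the smallest p the permutations can give being 1e-05) and Spearman's rho = 0.95 (permutation p = 2e-05, adjusted 0.0001). For H2bc1, r was 0.89 (permutation p = 9e-05, adjusted 0.0003) and rho 0.87 (permutation p = 0.00018, adjusted 0.0006). For H2ac1, r was 0.85 (permutation p = 0.00034, adjusted 0.00085) and rho 0.85 (permutation p = 0.00056, adjusted 0.0014). For H3f4, r was 0.70 (permutation p = 0.00683, adjusted 0.0137) and rho 0.65 (permutation p = 0.0197, adjusted 0.0395), and for H1f7, r was 0.25 (permutation p = 0.407, adjusted 0.619) and rho 0.31 (permutation p = 0.299, adjusted 0.499). The elongated spermatid mean was related to H1f7 with r = 0.93 (permutation p = 2e-05, adjusted 0.0001) and rho = 0.95 (permutation p = 1e-05, adjusted 0.0001), while r with the other variants lay between 0.15 and 0.21 (permutation p from 0.485 to 0.619) and rho between 0.11 and 0.25 (permutation p from 0.416 to 0.725). With the 2 mice farthest from the median marker mean left out, r with the spermatocyte mean was 0.90 for H1f6, 0.75 for H2bc1, 0.70 for H2ac1 and 0.54 for H3f4, and it was 0.62 for H1f7, higher than over all mice and higher than that of H3f4. With the elongated spermatid mean, r was then 0.92 for H1f7 and between -0.26 and -0.16 for the other variants.

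The same relations were then computed within each group. H1f6 with the spermatocyte mean had r = 0.78 in controls (exact permutation p = 0.0208, n = 6) and 0.96 in MSUS samples (exact permutation p = 0.000397, n = 7). H1f7 with the elongated spermatid mean had r = 0.97 (exact permutation p = 0.00278, n = 6) and 0.92 (exact permutation p = 0.00377, n = 7). In controls r was 0.16 for H2bc1 (exact permutation p = 0.806, n = 6), 0.34 for H2ac1 (exact permutation p = 0.535, n = 6) and 0.14 for H3f4 (exact permutation p = 0.779, n = 6). In MSUS samples it was 0.96, 0.89 and 0.86 (exact permutation p = 0.000397, 0.00238 and 0.0125, n = 7). The difference in r between the groups was not tested. With the elongated spermatid mean, H3f4 had r = -0.90 in controls (exact permutation p = 0.0222, n = 6) and 0.47 in MSUS samples (exact permutation p = 0.287, n = 7). H2ac1, H2bc1 and H1f6 had r = -0.72, -0.42 and -0.35 with this mean in controls (exact permutation p = 0.122, 0.365 and 0.460, n = 6). In MSUS samples they had 0.39, 0.44 and 0.40 (exact permutation p = 0.374, 0.325 and 0.371, n = 7). The p-values within groups were not adjusted. The genes of a sample share their library and normalization.

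**Figure D5:**
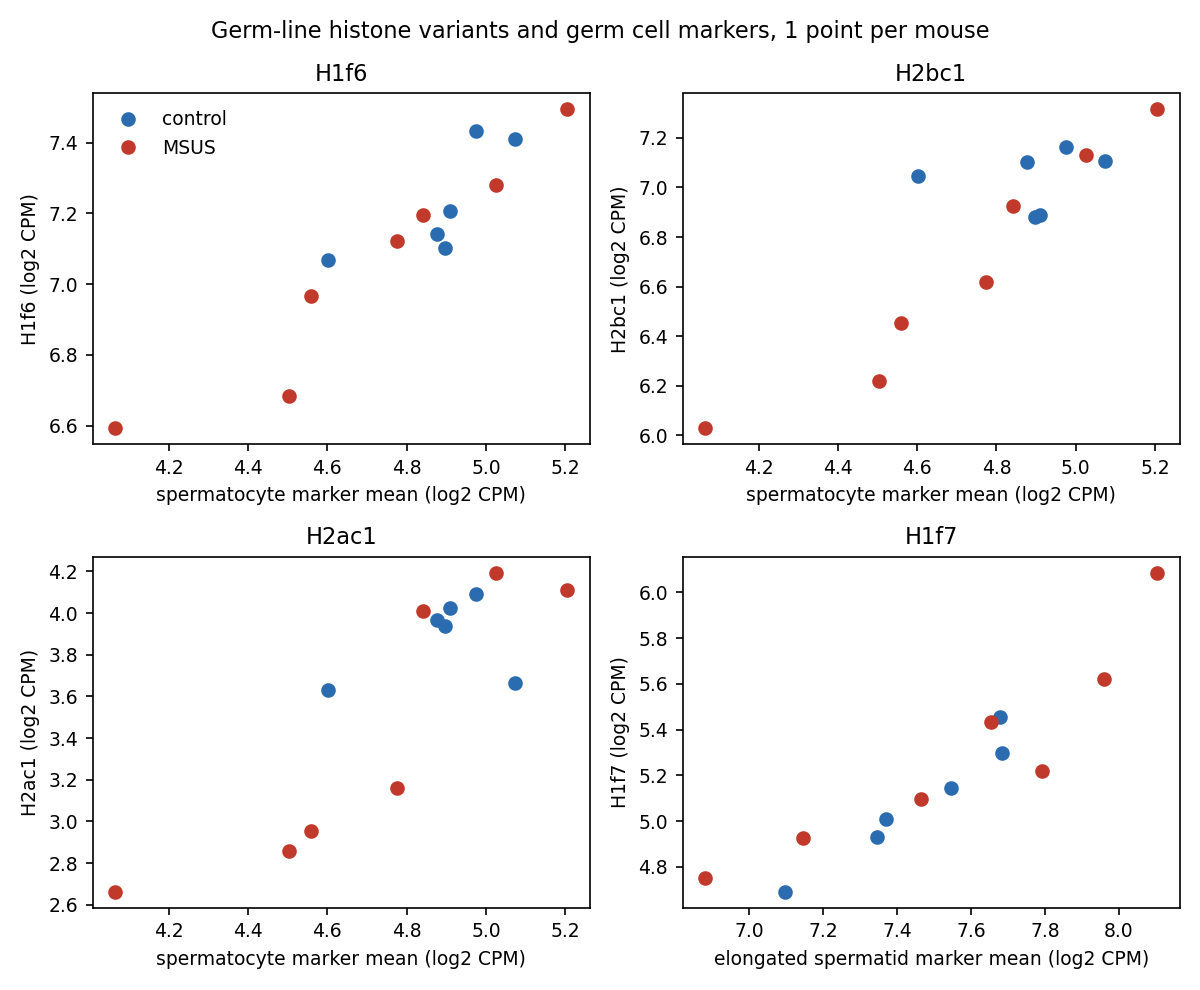
Level of H1f6, H2bc1 and H2ac1 against the mean of 11 spermatocyte markers, and of H1f7 against the mean of 10 elongated spermatid markers, all in log2 CPM, 1 point per mouse (blue control, red MSUS). The MSUS mice extend from 4.07 to 5.21 on the spermatocyte axis and the controls from 4.60 to 5.07.

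The spermatocyte markers were themselves lower in part of the MSUS mice. Their mean was 4.89 ± 0.16 log2 CPM (SD, n = 6) in controls and 4.71 ± 0.38 (SD, n = 7) in MSUS samples. The same mouse, MSUS 1, was lowest for this mean and for H1f6, H2bc1 and H2ac1. Of the 11 markers, 10 had a negative log2 fold change (median -0.20), and 1, Sycp2 of the synaptonemal complex, was called lower (background 2.4%; -0.34, adjusted p = 0.878, limma). With the spermatocyte mean as a covariate, the log2 fold change of H2bc1 was -0.15 and that of H2ac1 -0.18, neither of them called, and the sign of H3f4 changed to 0.18. With the elongated spermatid mean as a covariate, H2bc1 had -0.40 and H2ac1 -0.52, and both were called. The sort kept cells with a diploid Hoechst signal. By the paper's account this sets them apart from haploid spermatids and from tetraploid dividing cells. Markers of spermatids and of spermatocytes were measured at the levels given above. The paper also reports spermatid markers such as Prm2 and proposes that they likely remain from spermatids that Sertoli cells took up. By vimentin staining, the paper counted most cells of the sorted fraction as Sertoli cells. The marker means in these fits come from the same libraries, so the fits cannot tell fewer germ cells from lower expression. The part of germ cell RNA in these differences was not tested.

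Other cell types' markers were set beside the histones in the same way. Of 10 elongated spermatid genes, all 10 had a positive log2 fold change (median 0.08) and 0 were called, against 5.42% of all genes tested. The 12 Sertoli markers had a median of -0.05, the 6 spermatogonial ones tested -0.02 (Uchl1, the most abundant, -0.01), the 10 round spermatid genes 0.07 (Spaca1 0.23), the 6 Leydig genes 0.14 (Star -0.01), the 4 endothelial genes 0.20 (Pecam1 0.26) and the 4 peritubular myoid genes 0.66 (Acta2 0.59), with 0 called in each.

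The machinery that serves histone mRNAs and proteins was examined as a second layer. Slbp, the protein that binds the stem-loop, had 5.89 ± 0.07 log2 CPM (SD, n = 6) in controls and 6.08 ± 0.13 (SD, n = 7) in MSUS samples, with all 7 MSUS samples over the control mean and 6 of them over every control (log2 fold change 0.19, SE 0.07, adjusted p = 0.878, limma). It was the single gene called among 23 tested of histone mRNA processing, against 5.42% of all genes tested. Of the 23, 13 had a positive and 10 a negative log2 fold change (median 0.01). The most abundant of the list, Srrt (0.10), Ncbp1 (-0.16) and Sympk (0.10), which act in cap binding and 3′ end cleavage, were not called.

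Among 29 histone chaperones and exchange factors, 2 were called higher (background 3.02%) and 0 lower (background 2.4%), with a median log2 fold change of 0.03. Cabin1, a partner of the H3.3 chaperone HIRA, had a log2 fold change of 0.30 (SE 0.11, adjusted p = 0.878, limma), and Supt6, a histone chaperone of transcription elongation, 0.16 (SE 0.07, adjusted p = 0.878). The most abundant, Ncl, Rbbp4 and Rbbp7, had -0.04, -0.12 and -0.04 and were not called. Of 30 genes of S phase and proliferation, 21 had a negative log2 fold change (median -0.10), and 1, the replicative helicase subunit Mcm6, was called lower (background 2.4%; -0.24, SE 0.10, adjusted p = 0.878, limma). The most abundant, Cdk2, Mcm3 and Rrm1, had 0.02, 0.07 and -0.07 and were not called. Among histone genes named outside the rule, Macroh2a1, Cenpa and the spermatid linker histone Hils1 were tested and 0 of 3 were called (background 5.42%), with log2 fold changes of 0.09, -0.37 and 0.32.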

How the data were processed

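RNA sequencing of enriched Sertoli cells of 6 control and 7 MSUS males, 1 animal per library, was used. The authors trimmed reads with Trim Galore 0.6.5 and assigned them with Salmon 1.1.0 to GENCODE vM23 transcripts (GRCm38), and deposited estimated counts per gene without normalization. How transcripts were summed to genes is not given in the sources used here. Counts were rounded. The 27170 features with no gene name (20.7% to 26.7% of counts) entered neither library sizes nor tests. Depth was 12701776 to 18649945 counts per sample, and spread between mice limits the precision. No pair among the 78 pairs of samples was alike within sampling noise.

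Counts were scaled by TMM (edgeR 4.0.16 under R 4.3.3), transformed by voom and tested with limma 3.58.1, the methods the study names. Leaving out unnamed features and filtering with filterByExpr, which kept 14421 genes, were choices made here. Benjamini-Hochberg adjustment was over all genes kept, and the study's threshold of an unadjusted p under 0.05 was used for calls. A prior count of 2 was added for levels in log2 CPM. edgeR's quasi-likelihood test, DESeq2 1.42.0, other normalizations, filters, covariates and leaving out each library were alternatives. The fit was also run on simulated data, whose outcome is not reported here. Permutation tests were two-sided, and correlations over all mice drew 100000 permutations. Named were every tested replacement or germ-line member, the 10 replication-dependent members with the highest mean log2 CPM, every member with p under 0.05, and, for the other lists, called and most abundant genes. H2ac12, H1f1 and H3c2 were named after their values were seen. All 98 members matched RefSeq (GRCm38.p6), which gave positions and promoters, and 97 had a transcript of GENCODE vM21, used for lengths, stem-loops and 31-base words, while the authors used vM23. Members and lists were chosen with earlier results of these data known.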

Additional observations from a re-analysis of the deposited data

Results flagged for a closer look

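Among 154 groups of values searched, 10 held a sample far from the others of its group by Dixon's ratio, and chance flags about 1 in 20 groups, or 7.7 here. Control 10 stood apart in 4 of them, with H2afx at 5.904 log2 CPM (next control 6.268), Spaca1 at 4.194 (next 4.725), the summed replication-dependent H2B at 7.708 (next 7.947) and the summed round spermatid markers at 6.556 (next 6.727), each the lowest control. Control 14 was lowest for Ldhc at 7.2 log2 CPM (next 7.666) and for the summed spermatocyte markers at 8.927 (next 9.224). Control 12 was lowest for the summed level of the other histone genes, at 6.867 (next 7.025). In MSUS samples, MSUS 5 was lowest for H1f2 at 6.916 (next 7.133), MSUS 1 highest for Cdk2 at 6.665 (next 6.51) and MSUS 11 highest for Spaca1 at 5.719 (next 4.996).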

How the results depend on the processing

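No paired analysis was possible because the groups compared share no replicate number. The paper's supplement lists the cage and litter cage of each mouse. Litter was not among the sample labels used here, so the fits treated the mice as independent. The count of replication-dependent genes with p under 0.05, 3 in the main analysis, was 1 with edgeR, 1 with unnamed features kept, 1 with the spermatocyte mean as covariate, and 0 of 20 tested when only members with under 50% shared 31-base words were counted, a restriction chosen after seeing the data. With 1 library left out it ranged from 0 (without MSUS 1) to 7 (without MSUS 11), and was 1 without control 14 and 5 without control 10 or MSUS 23. Over all genes, 781 of 14421 were called in the main analysis, 778 with edgeR, 774 with the spermatocyte mean and 934 of 16815 with unnamed features kept. The totals were 775 of 14296 without MSUS 1, 1051 of 14290 without MSUS 11 and 683 of 14568 without control 14. They were 1121 of 14552 without control 10 and 873 of 14319 without MSUS 23. The count of replacement and germ-line genes, 2, was 0 with edgeR, 1 with DESeq2, 4 with sample quality weights and 1 with the spermatocyte mean as covariate. With 1 library left out it ranged from 0 (without MSUS 1, 5 or 6 or control 22 or 24) to 5 (without MSUS 11), and was 1 without control 9, 12 or 14 or MSUS 26. Over all genes, 835 of 14421 were called with DESeq2 and 1045 with sample quality weights. The totals were 534 of 14287 without MSUS 5, 670 of 14294 without MSUS 6, 804 of 14532 without control 22 and 643 of 14603 without control 24. They were 550 of 14564 without control 9, 580 of 14549 without control 12 and 718 of 14294 without MSUS 26. The cause of these shifts was not tested. The medians and summed levels of both classes kept a negative sign in every alternative run, and 0 of all genes tested had an adjusted p under 0.05 in any of them.

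The sign reversed for several genes, among them Hist1h4n, which was -1.93 in the main analysis. With the elongated spermatid mean as covariate, the log2 fold change was -0.32 for H2al1g, -0.42 for H2al1m, -0.045 for H2ap, 0.0096 for Uchl1 and -0.070 for Prm2. With the spermatocyte mean it was 0.18 for H3f4, 0.00443 for H2afz, 0.00251 for H1f4, -0.015 for Cdk2 and 0.11 for Ldhc. In edgeR it was -0.21 for H2al1m, 0.062 for Hist1h4n and 0.018 for Star, and in DESeq2 -0.20, 0.056 and 0.021. It was -0.00243 for H2ap with library size alone and 0.052 for Star with quality weights. With 1 library left out, the ranges that crossed 0 were -0.60 to 0.96 for H2al1g, -0.43 to 0.92 for H2al1m, -0.18 to 0.29 for H2ap, -0.18 to 0.067 for H3f4, -0.00437 to 0.18 for H2afj, -0.13 to 0.00828 for H2ac19, -0.079 to 0.036 for H1f4, -0.039 to 0.12 for H2bc18, -0.070 to 0.000861 for Ncl, -0.00719 to 0.044 for Cdk2, -0.060 to 0.037 for Uchl1, -0.16 to 0.041 for Ldhc, -0.026 to 0.21 for Prm2 and -0.11 to 0.092 for Star.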
